A study of Mus musculus with 9 samples.

Results

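The miR-17-92 and miR-106b-25 clusters were followed in small RNA sequencing of extracellular vesicles (EVs), the membrane particles that cells release, from bronchoalveolar lavage fluid (BALF) of the mouse lung. Their members were taken by name: every entry of the hairpins mir-17, mir-18a, mir-19a, mir-20a, mir-19b and mir-92a (miR-17-92) and mir-106b, mir-93 and mir-25 (miR-106b-25), with both arms, both genomic copies and all isomiRs, which are variants with a shifted 5′ end. This gave 36 of the 1308 entries of the table, of which 16 were canonical mature miRNAs and 20 were isomiRs. mir-92a had 9 entries, mir-25 had 7, mir-93 had 6, mir-106b had 5 and mir-17 had 3, while mir-18a, mir-20a and mir-19b had 2 each. mir-19a had 0 entries.

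The mice were female C57BL/6J, 8 to 10 weeks old, and all breathed in a whole-body chamber for 3 h, either filtered air (FA), 1 ppm ozone (O3) or 2 ppm O3, before lavage on the following day. There were 3 pools of BALF in each group. An FA pool held fluid of 4 mice and an O3 pool that of 3 mice, so that pool size and exposure to O3 cannot be told apart. Cells were spun out of the fluid before EV RNA was bound to a column, so the vesicles come from an unknown mix of cells. In such bulk RNA, fewer vesicles of a type and less RNA per vesicle cannot be told apart. Levels are RPMMM, the reads of an entry scaled to the same total of miRNA reads in each pool. Pools are numbered in the order of deposition, which pairs no pools across groups.

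MicroRNAs pair through bases 2 to 8, the seed, with messages that they repress, so miRNAs with 1 seed can share targets even when they come from different chromosomes. miR-17-92, known as OncomiR-1, is transcribed as 1 precursor that MYC and E2F factors activate; it lowers BIM and E2F1, is needed for lung and B cell development, and is high in dividing cells. miR-106b-25 is its paralog inside Mcm7, a gene of the replicative helicase, and its members restrain p21 and the TGF-beta pathway. Both clusters hold members of the miR-17 and miR-92/25 seed families, and miR-17-92 alone also holds the miR-18 and miR-19 families.

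The mature sequences below, from RefSeq (GRCm38.p6), are those the results turn on, written 5′ to 3′ with the seed in capitals, so that the families can be read by eye. Those of the miR-17 family are:
miR-17-5p: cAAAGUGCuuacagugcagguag
miR-20a-5p: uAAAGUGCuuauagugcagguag
miR-106b-5p: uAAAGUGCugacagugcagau
miR-93-5p: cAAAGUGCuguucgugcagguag
The miR-18 and miR-19 families have these guide strands, of which miR-19a-3p has no entry:
miR-18a-5p: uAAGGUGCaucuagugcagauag
miR-19a-3p: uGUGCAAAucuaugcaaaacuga
miR-19b-3p: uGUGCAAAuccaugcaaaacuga
The miR-92/25 family is shown with miR-92b-3p and miR-32-5p, which carry its seed but lie outside both clusters:
miR-92a-3p: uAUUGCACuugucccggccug
miR-25-3p: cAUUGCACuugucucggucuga
miR-92b-3p: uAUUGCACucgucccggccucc
miR-32-5p: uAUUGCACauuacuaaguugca
The strand opposite miR-106b-5p is shown because it changed with it:
miR-106b-3p: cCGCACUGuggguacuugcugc

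Counting from 1 at the 5′ end, miR-92a-3p and miR-92b-3p differ over their shared 21 bases by U10C and G21C, and miR-92a-3p and miR-25-3p by U1C, C14U and C18U. miR-17-5p and miR-106b-5p differ by C1U, U10G and G20A, and miR-17-5p and miR-93-5p by U10G, A11U, C12U and A13C. In none of these pairs does a difference fall in the seed. Of 1679 mature names in the RefSeq table, 7 carry the seed of the miR-17 family and 6 that of the miR-92/25 family.

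In the NCBIM37 (mm9) assembly the 6 hairpins of miR-17-92 lie on the plus strand of chromosome 14 from 115442893 to 115443728, a stretch of 836 bases inside an exon of the noncoding host gene Mir17hg. The 3 hairpins of miR-106b-25 lie on the minus strand of chromosome 5 from 138606549 to 138607046, a stretch of 498 bases inside Mcm7. mir-106b is intronic, and mir-93 and mir-25 overlap the exon of an Mcm7 transcript that is annotated as a retained intron. Second copies of mir-92a and mir-19b, mir-92a-2 and mir-19b-2, lie on the X chromosome.

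Both copies of mir-92a give the same mature miR-92a-3p, and they part after its last base. These are the genomic sequences of the mature miRNA in lower case with the next 6 bases in capitals, shown because the table lists the copies apart:
mir-92a-1: tattgcacttgtcccggcctgTTGAGT
mir-92a-2: tattgcacttgtcccggcctgAGGAAG
The entry of copy 2 held between 5.60% and 10.0% of the RPMMM of miR-92a-3p in each pool. Reads of the mature sequence alone cannot be assigned to either copy, so the copies were not read as separate genes.

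The depth behind these levels differed between exposures. The step between low values gave 535538 to 773275 miRNA reads in the FA pools, 555110 to 860940 after 1 ppm O3 and 281542 to 300920 after 2 ppm O3. No value above 0 stood for fewer than about 10.0 reads, so an entry listed at 0 may have had some reads. The member entries above 0 numbered 17 to 22 in an FA pool, 20 to 23 after 1 ppm O3 and 12 to 14 after 2 ppm O3, where the pools were shallowest. The level of all members together was 0.924% to 1.01% of the miRNA total in FA, 0.906% to 1.05% after 1 ppm O3 and 0.641% to 0.893% after 2 ppm O3.

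That total changed its make-up. The entries of miR-2137, together with those of 4 hairpins whose names have no match among RefSeq genes (mir-5115, mir-5109, mir-5105 and mir-5102), held on average 0.588% of it in FA, 8.07% after 1 ppm O3 and 45.2% after 2 ppm O3. The median log2 fold change from FA over the 461 entries tested, those averaging above 50 RPMMM, was -0.08 after 1 ppm O3 and -0.83 after 2 ppm O3. When each pool was instead divided by its median ratio to the other pools, called median ratios here, it was -0.08 after 2 ppm O3. Of the entries that passed the test after 2 ppm O3, 66 of 201 were higher on the deposited scale and 87 of 120 with median ratios. Changes below are therefore also given relative to the median entry, and ratios within a pool, which no scaling alters, are given beside them.

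The miR-92/25 family made up most of both clusters. With the copies added, its share of the members' RPMMM was 79.8% ± 1.14 in FA (SD, n = 3 pools), 79.9% ± 3.40 after 1 ppm O3 and 84.6% ± 1.70 after 2 ppm O3. The miR-17 family made up 13.9% ± 0.300 in FA, 14.2% ± 2.51 after 1 ppm O3 and 10.8% ± 1.65 after 2 ppm O3. The 2 ppm O3 pools lay above every FA pool for the first family and below every FA pool for the second. They overlapped the 1 ppm O3 pools, since 1 ppm O3 pool 1 held 83.8% and 11.3%, inside the 2 ppm O3 ranges.

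miR-92a-3p was the most abundant member in each pool. Its main entry, of copy 1, read 4014, 4444 and 4662 RPMMM in the FA pools, 4488, 3689 and 4964 after 1 ppm O3 and 3360, 2622 and 4285 after 2 ppm O3. The 2 ppm O3 range overlapped both others. The entry of copy 2 read 318, 278 and 454 RPMMM in FA, 425, 340 and 294 after 1 ppm O3 and 296, 262 and 478 after 2 ppm O3, with complete overlap. As a share of the members, miR-92a-3p held 50.6% ± 4.21 in FA, 51.3% ± 5.13 after 1 ppm O3 and 52.7% ± 5.08 after 2 ppm O3.

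miR-25-3p, which has the same seed and restrains p57 and other cell cycle brakes, was second. It read 3337, 2202 and 2702 RPMMM in FA, 2661, 2711 and 2509 after 1 ppm O3 and 2200, 2298 and 2493 after 2 ppm O3. The FA range covered most of both O3 ranges, and the 2 ppm O3 pools lay below the 1 ppm O3 pools by a narrow gap. Within each group every pool had less miR-25-3p than the lowest miR-92a-3p entry of copy 1. On the deposited scale both entries varied little. The coefficient of variation over the 9 pools was 13.7% for miR-25-3p and 17.98% for miR-92a-3p of copy 1. These were at rank 5 and rank 11 from the lowest of 461 entries, whose median was 50.6%. This rests on the scaling: the log2 fold changes from FA after 2 ppm O3 were -0.22 and -0.38 on the deposited scale. With median ratios they were 0.48 and 0.32.

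miR-93-5p led the miR-17 family, and miR-106b-5p followed. miR-93-5p read 874, 854 and 880 RPMMM in FA, 740, 1029 and 1069 after 1 ppm O3 and 525, 525 and 597 after 2 ppm O3. All 3 pools of the highest concentration lay below all 6 others. miR-106b-5p read 336, 188 and 351 RPMMM in FA, 205, 185 and 249 after 1 ppm O3 and 143, 89.8 and 88.8 after 2 ppm O3, again with no overlap between 2 ppm O3 and the rest. The values after 2 ppm O3 stood for 25 to 43 reads of miR-106b-5p, against 145 to 259 in FA.

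The opposite strand of the same hairpin was about as abundant. miR-106b-3p read 271, 371 and 288 RPMMM in FA, 295, 132 and 343 after 1 ppm O3 and 99.7, 114 and 160 after 2 ppm O3. The FA and 2 ppm O3 pools did not overlap, and 1 ppm O3 pool 2 lay among the pools of the highest concentration. The ranges of both arms of mir-106b overlapped in each exposure, so no order was read between them. For mir-92a, mir-93 and mir-25 1 arm dominated.

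**Figure D1:**
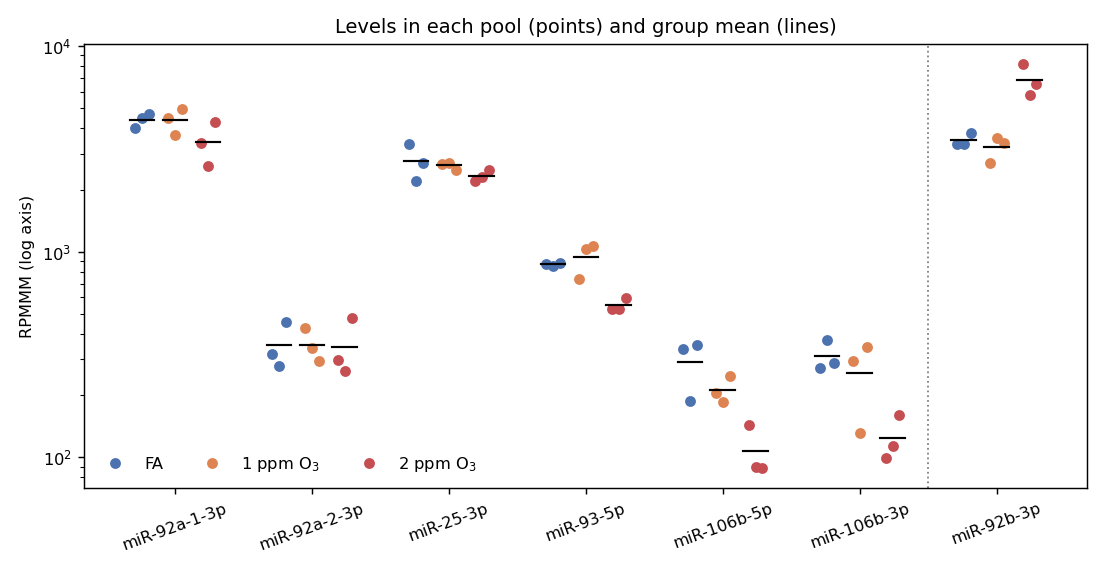
Level in RPMMM (log axis) of the most abundant entries of both clusters and of miR-92b-3p, right of the dotted line, with a point for each pool and a line at the mean of the 3 pools of a group. miR-93-5p, miR-106b-5p and miR-106b-3p were lower in all 2 ppm O3 pools than in all FA pools, while miR-92b-3p was higher in all of them.

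The guide strands for which miR-17-92 is best known were scarce. miR-17-5p read 0, 40.1 and 50.4 RPMMM in FA, 29.9, 97.3 and 178 after 1 ppm O3 and 53.2, 72.6 and 0 after 2 ppm O3. miR-20a-5p read 180, 129 and 54.2 RPMMM in FA, 74.9, 0 and 164 after 1 ppm O3 and 49.8, 69.1 and 107 after 2 ppm O3. Both overlapped between all groups, and no fold change is given since each was listed at 0 in at least 1 pool.

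miR-19b-3p, the guide strand of the miR-19 family in this cluster, read 36.3, 22.6 and 0 RPMMM in FA and 0, 30.6 and 58.7 after 1 ppm O3, the same value at both of its copies, and was listed at 0 in the 3 pools of 2 ppm O3. The lowest value above 0 in those pools was 34.3 to 37.3 RPMMM, so levels such as 22.6 or 30.6 would not have been listed there. miR-18a-5p was listed in 1 pool only, at 32.4 RPMMM in 1 ppm O3 pool 2. miR-25-5p was also listed in 1 pool, at 38.0 RPMMM in 2 ppm O3 pool 2.

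The passenger strands were low as well. miR-17-3p read 28.5, 0 and 48.6 RPMMM in FA and 41.6, 0 and 23.2 after 1 ppm O3, and was listed at 0 after 2 ppm O3. miR-18a-3p read 16.9, 0 and 26.1 RPMMM in FA, 0 in each 1 ppm O3 pool and 49.7 in 2 ppm O3 pool 3, its only value there. miR-93-3p read 85.6, 147 and 101 RPMMM in FA, 39.9, 84.7 and 0 after 1 ppm O3 and 0, 0 and 74.6 after 2 ppm O3, and all FA pools were above all others. It passed the mean of 50 RPMMM through its FA level, so no test is given for it.

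miR-92a-1-5p, the passenger strand of the most abundant member, went from 57.0 to 159 RPMMM in FA, from 26.6 to 191 after 1 ppm O3 and from 53.2 to 277 after 2 ppm O3. The log2 ratio of the 3p to the 5p arm of mir-92a was 4.72 ± 0.700 in FA, 4.91 ± 1.60 after 1 ppm O3 and 3.77 ± 1.22 after 2 ppm O3, and 8 of 27 pairs of pools were in rising order of concentration (exact permutation test, two-sided, p = 0.277, adjusted p = 0.906 over 7 ratios). These values average the copies; with them added they were 5.72, 5.91 and 4.77. The same log2 ratio for mir-106b was 0.13 ± 0.741, 0.47 ± 0.496 and 0.22 ± 0.691 in the 3 groups, with 14 of 27 pairs (exact permutation test, two-sided, p = 1).

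Among the 20 isomiRs the only one with a mean above 50 RPMMM was that of miR-92a-1-3p with a start shifted by +1 base. It read 118, 172 and 174 RPMMM in FA, 183, 47.7 and 194 after 1 ppm O3 and 120, 76.0 and 181 after 2 ppm O3. Its share was 3.36% ± 0.487, 2.92% ± 1.44 and 3.38% ± 0.599 in the 3 groups, and 14 of 27 pairs rose (exact permutation test, two-sided, p = 1). The next, the +1 isomiR of miR-25-3p, reached 126.1 RPMMM and was listed at 0 in 2 of the 2 ppm O3 pools.

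**Figure D2:**
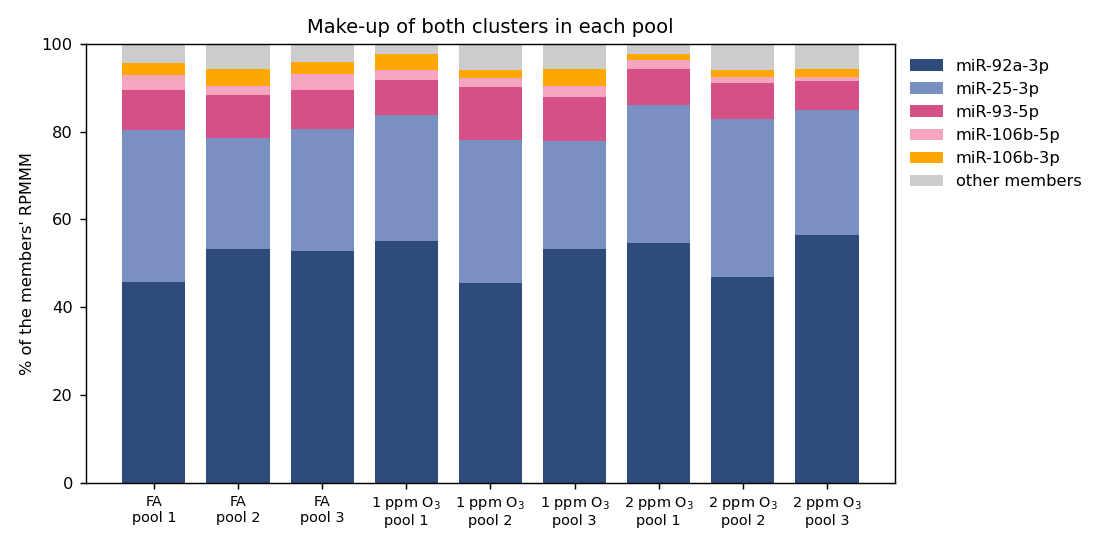
Share of the members' RPMMM (%) held by miR-92a-3p (both copies added), miR-25-3p, miR-93-5p and both arms of mir-106b in each of the 9 pools, with all other member entries in grey. In each pool miR-92a-3p held the largest part, from 45.5% to 56.5%.

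To ask which members differed between exposures, log2(RPMMM + 1) was fitted with limma over the 461 entries tested, of which 11 were members. Entries that changed at least 2-fold with a Benjamini-Hochberg p below 0.05 are called differentially expressed (DE). After 1 ppm O3, 0 of the 11 members were DE compared with FA, and 0 had an unadjusted p below 0.05, where 13.2% of all entries tested were DE, 10.4% higher and 2.82% lower. The median log2 fold change was -0.18 over the 11 member entries, of which 4 are from mir-92a, and -0.08 over all entries. miR-25-3p had a log2 fold change of -0.04 (SE 0.151), miR-92a-1-3p of -0.01 (SE 0.182), miR-93-5p of 0.10 (SE 0.177), miR-106b-5p of -0.41 (SE 0.365) and miR-106b-3p of -0.37 (SE 0.405). The first and second of these crossed 0 with the scaling, miR-25-3p was at 0.11 without FA pool 1 and miR-106b-3p at 0.049 without 1 ppm O3 pool 2.

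After 2 ppm O3, 2 of the 11 members were DE, both lower than in FA and both from mir-106b, where 43.6% of all entries tested were DE, 14.3% higher and 29.3% lower. The log2 fold change of miR-106b-5p was -1.42 (SE 0.365, adjusted p = 0.00909 from limma) and that of miR-106b-3p was -1.32 (SE 0.405, adjusted p = 0.0204 from limma). These changes were -0.59 and -0.50 relative to the median entry. Both kept their sign and were no longer DE with median ratios, at -0.72 (adjusted p = 0.150 from limma) and -0.63 (adjusted p = 0.224 from limma). The call for miR-106b-3p was also lost with miR-2137 left out of the total (-1.02, adjusted p = 0.0633 from limma). It was lost too without FA pool 2 (adjusted p = 0.0703 from limma), 2 ppm O3 pool 1 (adjusted p = 0.0665) or 2 ppm O3 pool 2 (adjusted p = 0.0513), where its log2 fold change was -1.18 to -1.27 and 1 member was left DE.

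miR-93-5p, from the same cluster, passed the adjusted p but not the fold after 2 ppm O3, at -0.66 (SE 0.177, adjusted p = 0.0105 from limma) on the deposited scale, 0.16 above the median entry, and it was at 0.03 with median ratios. miR-25-3p had a log2 fold change of -0.22 (SE 0.151, adjusted p = 0.232 from limma) and miR-92a-1-3p of -0.38 (SE 0.182, adjusted p = 0.102 from limma). Leaving out single pools took them from -0.37 (without FA pool 2) to -0.068 (without FA pool 1) and from -0.56 (without 2 ppm O3 pool 3, adjusted p = 0.0215 from limma, under the fold) to -0.20 (without 2 ppm O3 pool 2). They stood at 0.61 and 0.45 relative to the median entry. With median ratios they turned to 0.48 (adjusted p = 0.0260 from limma) and 0.32 (adjusted p = 0.133 from limma). Of the 11 member entries, 8 lay above the median of all entries, and their median was -0.38 against -0.83. These 8 include all 4 tested entries of mir-92a, and miR-17-5p and miR-20a-5p, which were listed at 0 in some pools. The 11 also hold miR-93-3p, which passed the filter through its FA level. The count and the median therefore do not describe 11 separate miRNAs.

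Between the O3 concentrations, 1 of 11 members was DE, where 33.6% of all entries tested were, 22.3% lower. miR-106b-5p was lower after 2 ppm than after 1 ppm O3, at -1.01 (SE 0.365, adjusted p = 0.0492 from limma), and that call was lost without FA pool 1 or 3, without any of the 1 ppm O3 pools and without 2 ppm O3 pool 2 or 3 (log2 fold change from -1.10 to -0.89 there), and with median ratios, at -0.40. miR-93-5p was lower by -0.77 (SE 0.177, adjusted p = 0.00700 from limma), under the fold. The comparisons of 1 and 2 ppm O3 with FA share the FA pools.

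**Figure D3:**
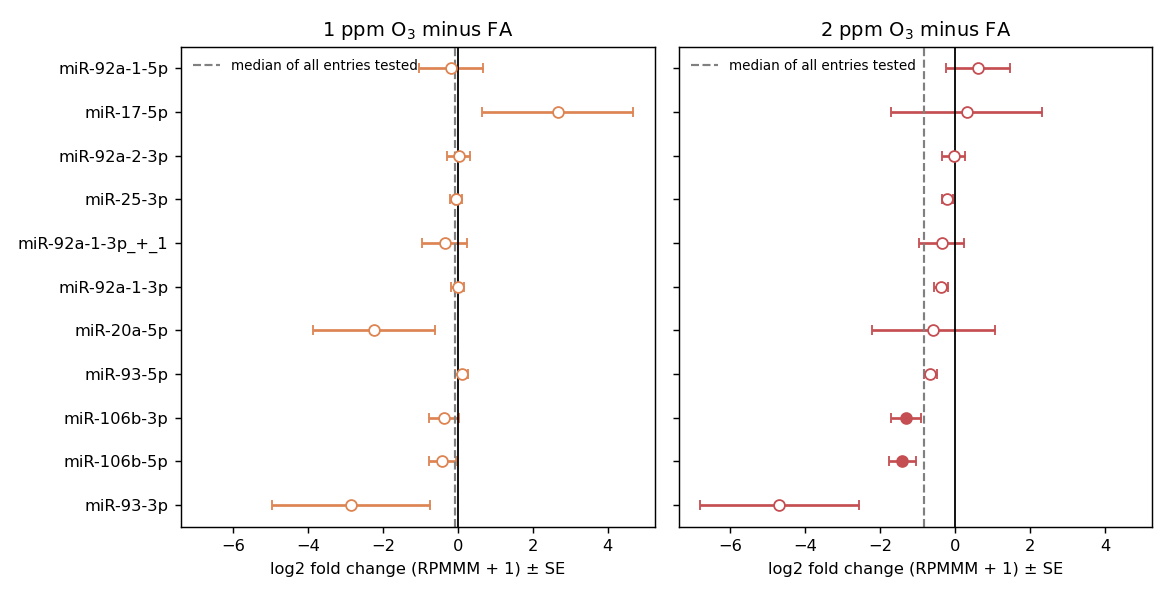
Log2 fold change of RPMMM + 1 (± SE from limma) of the 11 members tested after 1 ppm O3 (left) and 2 ppm O3 (right) compared with FA, with filled points for DE entries and a dashed line at the median of all 461 entries, -0.08 and -0.83. After 2 ppm O3 the filled points are both arms of mir-106b, below the dashed line, while miR-25-3p and miR-92a-1-3p lie above it. Their signs relative to 0 turn with median ratios, and the wide bars belong to entries listed at 0 in some pools.

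Summed over arms and isomiRs with copies averaged, the miR-106b-25 cluster read 5046, 3951 and 4474 RPMMM in FA, 4072, 4536 and 4308 after 1 ppm O3 and 3011, 3065 and 3452 after 2 ppm O3. The pools of the highest concentration were below all others. Only 4 of 27 pairs of pools were in rising order (exact permutation test, two-sided, p = 0.0417, adjusted p = 0.0984 over 4 sums), where 1680 arrangements allow no p under 0.00119. Without FA pool 2 the adjusted p was 0.0214, with 1 pair rising. With median ratios 23 of 27 pairs rose, so the direction of this sum rests on the scaling.

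The miR-17-92 sum was 2787 ± 182 RPMMM in FA, 2845 ± 443 after 1 ppm O3 and 2287 ± 590 after 2 ppm O3, and 8 of 27 pairs rose (exact permutation test, two-sided, p = 0.277), against 23 with median ratios. With the copies added it was 5273 ± 358, 5360 ± 817 and 4265 ± 1097 RPMMM, and 9 of 27 pairs rose. This alternative was chosen after the low values of equal-valued copies were seen. Of these, 52 lay midway between whole reads, 64 on whole reads and 27 on neither. The log2 ratio of the miR-106b-25 to the miR-17-92 sum, free of the scaling, was 0.68 ± 0.245, 0.61 ± 0.265 and 0.50 ± 0.259, and 9 of 27 pairs rose (exact permutation test, two-sided, p = 0.388, adjusted p = 0.906 over 7 ratios). With the copies added it was -0.24 ± 0.245, -0.31 ± 0.274 and -0.40 ± 0.271, with 10 of 27 pairs. With only the chromosome 14 copies counted it was -0.13, -0.20 and -0.28, with 9 of 27 pairs. By group mean, miR-106b-25 was therefore the larger only with the copies averaged. The mir-92a copies are unequal, and averaging put the miR-17-92 sum below the miR-92a-1-3p entry alone (mean 4373 RPMMM in FA). A difference in trend between the clusters was not detectable over these 9 pools.

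By seed, the miR-17 family read 1417, 1265 and 1389 RPMMM in FA, 1073, 1403 and 1659 after 1 ppm O3 and 814, 757 and 792 after 2 ppm O3, where all pools were below all others. Its log2 difference from FA was -0.78 after 2 ppm O3 (p = 0.1 in the two-sided exact permutation test, which 3 pools against 3 cannot go below), and 5 of 27 pairs rose (p = 0.0738 by the exact test, adjusted p = 0.0984). With median ratios 12 of 27 pairs rose and the difference was -0.09. The miR-92/25 family went from 4796 to 5728 RPMMM in FA, from 5012 to 5358 after 1 ppm O3 and from 3801 to 5054 after 2 ppm O3, at 5 of 27 pairs (exact permutation test, two-sided, adjusted p = 0.0984), at 1 pair with an adjusted p of 0.0214 without FA pool 2, and at 24 with median ratios. The miR-18 and miR-19 families were at 0 in several pools and were not tested.

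The families were also set against each other. The log2 ratio of the miR-92/25 to the miR-17 family was 2.02, 1.92 and 1.98 in FA, 2.31, 1.84 and 1.69 after 1 ppm O3 and 2.34, 2.33 and 2.67 after 2 ppm O3. Each pool of 2 ppm O3 lay above all 6 others, with a difference from FA of 0.47 (exact permutation test, two-sided, p = 0.1), and 21 of 27 pairs rose (p = 0.123 by the exact test, adjusted p = 0.858 over 7 ratios), all with the copies averaged. With the copies added 1 ppm O3 pool 1 (2.887) reached the level of the 2 ppm O3 pools (2.81 to 3.26), and 19 of 27 pairs rose. The log2 ratio of miR-25-3p to miR-92a-3p, from different chromosomes, was -0.80 ± 0.356, -0.85 ± 0.328 and -0.73 ± 0.309 with the copies added, and 0.20, 0.15 and 0.27 with the copies averaged, in both cases with 15 of 27 pairs rising (exact permutation test, two-sided, p = 0.831). That of miR-93-5p to miR-20a-5p was 3.07 ± 0.905, 3.87 ± 1.49 and 2.97 ± 0.514, with 14 of 27 pairs (exact permutation test, two-sided, p = 1). In 1 ppm O3 pool 2, where the canonical miR-20a-5p was listed at 0, it rests on an isomiR at 23.4 RPMMM, and the 1 ppm O3 mean was 3.03 without that pool. Ratios to miR-17-5p and of the miR-19 to the miR-17 family were not computed since parts of them were listed at 0.

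The 3 hairpins of miR-106b-25 share a transcript, and their mature strands were compared as plain ratios within a pool, chosen after their values were seen and given without a test. miR-106b-5p was 0.0973, 0.0802 and 0.126 times miR-25-3p in FA, 0.0755, 0.0627 and 0.0965 times after 1 ppm O3 and 0.0650, 0.0391 and 0.0351 times after 2 ppm O3. The 2 ppm O3 pools lay below all FA pools, and 1 of them overlapped the 1 ppm O3 pools. miR-93-5p was 0.261 to 0.388 times miR-25-3p in FA, 0.282 to 0.415 times after 1 ppm O3 and 0.229 to 0.258 times after 2 ppm O3, below all other pools by a narrow gap.

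miR-92b-3p, whose hairpin lies on chromosome 3 and which shares its seed with miR-92a-3p, was the most abundant relative. It read 3336, 3352 and 3783 RPMMM in FA, 2691, 3581 and 3363 after 1 ppm O3 and 8162, 5775 and 6568 after 2 ppm O3. Its log2 fold change was 0.96 from FA (SE 0.155, adjusted p = 6.45e-04 from limma), under the fold, and 1.08 from 1 to 2 ppm O3 (SE 0.155, adjusted p = 4.69e-04 from limma), which was DE. Without 1 ppm O3 pool 1 or 2 ppm O3 pool 1 the latter fell under the fold, at 0.96 and 0.95, and it stayed above 0 with every scaling run. From FA the fold was reached without FA pool 3 (1.02) or 2 ppm O3 pool 2 (1.07) and with median ratios (1.66).

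Set against its near-identical cluster member, with copies added, miR-92b-3p was 0.713 to 0.7999 times miR-92a-3p in FA, 0.586 to 0.925 times after 1 ppm O3 and 1.36 to 2.28 times after 2 ppm O3. It was the lesser of the pair in the first 6 pools and the greater in all pools of 2 ppm O3. This ratio was also chosen after its values were seen. miR-32-5p, the other relative with this seed, read 90.5 to 130 RPMMM in FA, 49.9 to 127 after 1 ppm O3 and 39.9 to 56.8 after 2 ppm O3. Of 7 relatives' entries tested, 0 were DE after 1 ppm O3 and 1 after 2 ppm O3, against 13.2% and 43.6% of all entries. That entry, miR-32-3p, was listed at 0 in 2 of those pools.

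**Figure D4:**
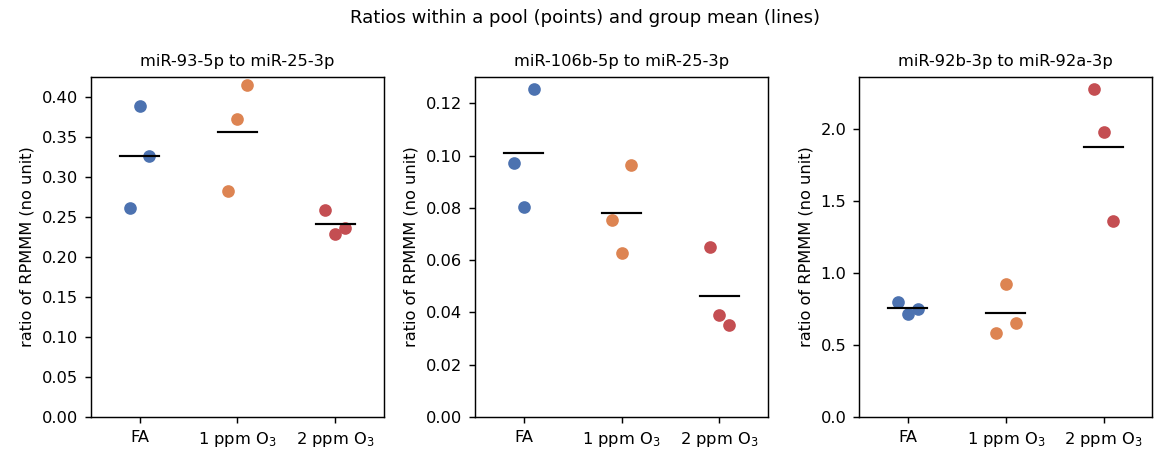
Ratio of RPMMM within each pool (points, no unit) and group mean (line) for miR-93-5p to miR-25-3p, miR-106b-5p to miR-25-3p and miR-92b-3p to miR-92a-3p with its copies added, each on an axis from 0. The first and second lay at 0.229 to 0.258 and 0.0351 to 0.0650 after 2 ppm O3, below the FA pools, and the third was above 1 in the 3 pools of 2 ppm O3 only.

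**Figure D5:**
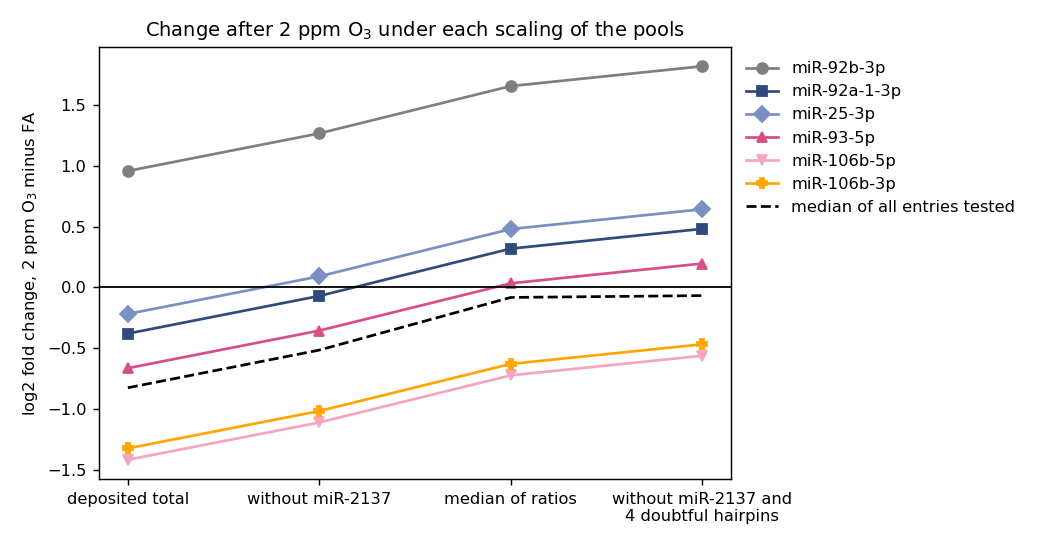
Log2 fold change from FA after 2 ppm O3 (vertical axis) of 5 members, of miR-92b-3p and of the median entry (dashed) under 4 ways of scaling the pools (horizontal axis). The lines move up together: miR-25-3p goes from -0.22 to 0.64 and miR-93-5p from -0.66 to 0.20, while both arms of mir-106b stay below 0 and below the dashed line and miR-92b-3p stays above it.

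Other sources of vesicles were followed by marker miRNAs. The summed RPMMM of erythroid markers (mir-451, mir-144 and mir-486, 8 entries) was 884 to 1822 in FA, 150 to 343 after 1 ppm O3 and 158 to 948 after 2 ppm O3; mir-451 was DE and lower after 1 ppm O3. miR-92a-3p and miR-25-3p, which red cells also hold, overlapped between FA and each O3 group. Leukocyte markers (mir-142, mir-223 and mir-150, 20 entries) summed to 1431 to 2129 in FA, 1848 to 2362 after 1 ppm O3 and 1285 to 1463 after 2 ppm O3. Of 5 entries tested, 1 was DE after 2 ppm O3, against 43.6% of all entries. It was mir-142-3p, at 123 to 182 RPMMM in FA and 0 to 41.5 there, near the lowest values listed in those pools (34.3 to 37.3). The log2 fold change was 0.16 for mir-142-5p and -0.08 for mir-223-3p.

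Airway epithelial markers (the miR-200 family and mir-34b, mir-34c and mir-449a, 65 entries) were the most abundant of these cell type lists and summed to 76486 to 85983 RPMMM in FA, 57361 to 62318 after 1 ppm O3 and 38618 to 42303 after 2 ppm O3. Of 29 tested, 11 were DE and lower, 0 higher and 18 not DE after 2 ppm O3, against 29.3% lower and 14.3% higher of all entries. The markers did not move as 1: the log2 fold change was -1.39 for mir-200b-3p, 0.19 for mir-34b-3p and -0.07 for mir-34c-5p. From 1 to 2 ppm O3, 3 were DE and higher and 4 lower. Among the higher was mir-34b-3p, at 1.06 (adjusted p = 0.00549 from limma). Endothelial markers (mir-126, 5 entries) summed to 112 to 314, 445 to 938 and 764 to 912 RPMMM, and muscle markers (15 entries) to 235 to 6029, 145.9 to 217 and 0 to 179 RPMMM, of which the equal-valued copies of mir-1a held 70.0 to 2231 each in FA. After 2 ppm O3, 3 of 3 endothelial entries tested were DE and higher, against 14.3% of all entries. Of 4 muscle entries tested, 4 were DE and lower, against 29.3% of all entries. From FA to 2 ppm O3 the epithelial sums were lower without overlap, as both arms of mir-106b were, and so were the muscle sums. The leukocyte mean went from 1730 to 1349. These sums are on the deposited scale, where the median entry was at -0.83. The median log2 fold change of the entries tested was -1.13 for epithelial and -6.59 for muscle markers. It was 2.32 for endothelial and -0.08 for leukocyte markers, both above the median entry. The muscle value rests on entries listed at 0 in some 2 ppm O3 pools, so its size depends on how zeros are treated. Among them, the equal-valued copies of mir-1a read 0 to 89.3 RPMMM there and are not separate miRNAs. The part of these sources in the lower levels of both arms of mir-106b was not tested.

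MYC, which activates miR-17-92, is also known to repress a set of miRNAs that includes let-7, miR-15/16, miR-26, miR-29 and miR-30. Of 68 entries of that set tested, 0 were DE and higher and 1 lower after 1 ppm O3, against 10.4% and 2.82% of all entries. After 2 ppm O3, 3 were DE and higher and 35 lower, against 14.3% and 29.3% of all entries. Their median log2 fold change was then -1.15, against -0.83 over all entries tested. Over the 9 pools, the miRNAs most like the miR-106b-25 sum among 226 canonical entries outside both clusters were miR-429-3p (Pearson r 0.97), miR-671-3p (0.95), miR-182-5p (0.94), miR-191-5p (0.94) and miR-27b-3p (0.93). Those most like the miR-17-92 sum were miR-1264-3p (0.89), miR-32-3p (0.88), miR-10b-5p (0.84), miR-149-5p (0.83) and miR-672-5p (0.81). These correlations describe log2 levels of pools that share the scaling to 1 total and the difference in depth.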

How the data were processed

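Small RNA of BALF EVs was sequenced from 9 pools, 3 per exposure. The authors ran miRquant 2.0 on the trimmed reads against mm9 and deposited a column for each pool in RPMMM, an RPM value whose total is the miRNA reads alone. Members, comparison lists and ratios were chosen with earlier results of these data known. Members were matched by hairpin name, and all 9 hairpins were looked for.

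log2(RPMMM + 1) was fitted for the 461 entries averaging above 50 RPMMM, using limma 3.58.1 (R 4.3.3) with 1 mean per exposure and variances moderated along the mean. Benjamini-Hochberg adjustment covered all entries tested, and DE needed an adjusted p below 0.05 as well as a fold of at least 2. The fit was tested on simulated data. The test the study used for sequencing is not given in the sources used here. Sums and ratios were compared with exact permutation tests, two-sided, and trends by how many of the 27 pairs of pools that differ in exposure rose with the concentration. P-values set differences between groups against the spread between these pools. The study's supplement lists a single exposure run at each O3 concentration, so run and concentration cannot be told apart.

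Reads per pool came from the step between low values: of the 200 lowest values, 70% to 86% lay on whole reads within 0.006 RPMMM, so no count test was run. Copies of a hairpin were averaged in the tested sums. Named were all member entries, their same-seed relatives and, per cluster, the 5 canonical miRNAs of most similar pattern. Sequences came from RefSeq (GRCm38.p6) and NCBIM37. The rest was done in Python 3.11.15 with pandas 2.3.3, numpy 2.4.6 and matplotlib 3.10.9. Alternatives were the pseudocount, filter, scaling, isomiRs and copies, model and each pool left out. Another scaling, zeros at the lowest value and other uses of copies were added after the data were seen.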

Additional observations from a re-analysis of the deposited data

How the results depend on the processing

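The scaling turned several signs. With median ratios, the numbers of rising pairs (of 27) were 23 for miR-17-92, 23 for miR-106b-25 and 24 for the miR-92/25 family, each with an adjusted p of 0.0556 (exact permutation test, two-sided). With a total that leaves out miR-2137 and the 4 hairpins named with it they were 24, 23 and 24, with 15 for the miR-17 family. The adjusted p from that test was then 0.0429 for miR-17-92 and the miR-92/25 family and 0.0556 for miR-106b-25. With median ratios, the total without miR-2137 and that without all 5, in this order, the log2 fold change of miR-25-3p was 0.039, 0.012 and 0.069 after 1 ppm O3 and 0.48, 0.091 and 0.64 after 2 ppm O3, and that of miR-92a-1-3p after 1 ppm O3 was 0.078, 0.051 and 0.11. After 2 ppm O3 miR-92a-1-3p was at 0.32 with median ratios and 0.48 without all 5, and miR-93-5p at 0.033 and 0.20. With isomiRs summed, miR-92a-1-3p after 1 ppm O3 was at 0.00190. The members DE after 2 ppm O3 numbered 0 with median ratios, 1 without miR-2137 and 0 without all 5. Between the concentrations 0 were DE under these, with a pseudocount of 10, no filter, isomiRs left out or only the 2 groups fitted. With canonical entries only, 12 pairs rose for the arms of mir-106b.

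With each pool left out in turn, the members DE numbered 1 to 3 after 2 ppm O3 and 0 to 1 between the concentrations. The rising pairs, then of 21, were 1 to 4 for the miR-106b-25 sum, 1 to 5 for the miR-92/25 sum, 9 to 14 for miR-25-3p to miR-92a-3p, 8 to 13 for miR-93-5p to miR-20a-5p, 9 to 14 for the arms of mir-106b and 8 to 13 for the share of the isomiR of miR-92a-1-3p. After 1 ppm O3 the log2 fold change was -0.19 to 0.11 for miR-25-3p, -0.10 to 0.11 for miR-92a-1-3p and -0.64 to 0.049 for miR-106b-3p. The causes were not tested. The depth after 2 ppm O3 limits entries near 34.3 RPMMM. No paired analysis was possible because the mice were assigned to separate exposure groups, and no pool has a partner in another group.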
